A study of Mus musculus with 8 samples.

Results

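The AP-1 family was followed through its 8 genes Fos, Fosb, Fosl1, Fosl2, Jun, Junb, Jund and Batf, found by symbol among the 55801 genes of the table, 1 row each. The rule finds the members by name and uses no value, although the family was picked with earlier results of these data known. All 8 had a mean TPM (transcript abundance scaled to transcript length and to the sum of the sample) of at least 1, as did 12189 genes in all. RNA was sequenced from peritoneal macrophages, which thioglycollate, an irritant broth, had drawn into the abdominal cavity of male C57BL/6 mice of 6 to 8 weeks 72 h before harvest. There were 4 groups of 2 samples: NC (DMSO, the vehicle), LPS, C498 and C498+LPS. C498, a compound picked from a screen for inhibitors of JAK/STAT and NFκB signaling, was given at 15 µM for 0.5 h, and LPS, the endotoxin of Gram-negative bacteria, at 100 ng/ml for another 4 h. The NC and C498 samples are listed with the same steps of 0.5 h and 4 h, without LPS in the second. The cells of all groups came from thioglycollate-treated mice, and no group held resident macrophages of untreated animals. Nothing in the sources used here states whether the 2 samples of a group came from separate mice or cultures, so p-values measure only the spread between these samples, which may be technical.

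AP-1 is a dimer of basic leucine zipper proteins. Fos proteins bind DNA only as partners of a Jun protein, whereas Jun proteins also pair with each other, and Batf pairs with Jun proteins but carries no activation domain of its own. Fos, Fosb, Jun and Junb are immediate-early genes, which cells switch on within minutes of a stimulus without new protein synthesis and switch off again soon after, whereas Fosl1 and Fosl2 follow later and Jund is made continuously. In macrophages, LPS acts through TLR4, and MAP kinases downstream of it switch on AP-1 genes and phosphorylate AP-1 proteins. All values here are mRNA levels late after LPS, and neither AP-1 protein nor DNA binding was measured.

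The macrophage markers Adgre1, Cd68, Csf1r, Itgam, Lyz2 and Mertk were present in every sample, at a summed TPM of 10583 to 20248, lowest in the C498+LPS samples. The summed TPM of 6 fibroblast markers was 150 to 200 in the NC and LPS samples and 618 to 911 in the C498 and C498+LPS samples, and that of 5 mesothelial markers 4.04 to 5.80 and 15.3 to 26.3, so both lists were higher in every C498-treated sample. In C498 vs NC, 5 of the 6 fibroblast markers were called higher, such as Col1a1 at 77.5 and 53.9 TPM in NC and 247 and 294 TPM in C498. Markers of neutrophils summed to 82.0 to 132 TPM in the NC and LPS samples and 52.2 to 80.8 TPM in the C498-treated samples, lower in each of these. S100a8 made up most of each sum, at 75.9 and 128 TPM in NC and 53.3 and 48.9 TPM in C498. Of these 7 markers only S100a8 and Retnlg had a mean TPM high enough to be tested. Retnlg was called lower in C498 vs NC (log2 difference -1.64) and against LPS in C498+LPS (-1.78), and S100a8 was called in neither. S100a9 was listed at 0 in the NC and LPS samples and at up to 0.86 TPM in the C498-treated samples, and Ly6g was above 0 only in C498 replicate 2 (2.62 TPM). Markers of T cells, B cells, endothelial cells, mast cells and eosinophils summed to at most 31.6 TPM in any sample. The neutrophil gene Elane and the eosinophil gene Epx were listed at 0 throughout. The part of fibroblasts, mesothelial cells and neutrophils in the AP-1 values of the C498-treated samples was not tested. In bulk RNA, fewer cells of a type and less RNA per cell cannot be told apart.

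The sequences below show the 150 bases before the start site of 4 members: Fos, Fosb and Jun, which were called higher with C498 and lower when LPS followed it, and Batf, which was lowest in C498. They come from the RefSeq promoter windows on GRCm38.p6, which hold 7 of the 8 members, while Fosl1 was not matched. Capitals mark TGACG, the core of the cAMP response element (CRE), TGACATCA, the CRE-like site known from the Jun promoter, and the TATA box TATAAA. Fos, chr12:85473740-85473889, plus strand; Fosb, chr7:19310046-19310195, minus strand; Jun, chr4:95052223-95052372, minus strand; Batf, chr12:85686570-85686719, plus strand.
Fos: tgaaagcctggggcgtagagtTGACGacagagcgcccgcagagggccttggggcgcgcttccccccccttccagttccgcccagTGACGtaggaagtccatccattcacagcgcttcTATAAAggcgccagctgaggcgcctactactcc
Fosb: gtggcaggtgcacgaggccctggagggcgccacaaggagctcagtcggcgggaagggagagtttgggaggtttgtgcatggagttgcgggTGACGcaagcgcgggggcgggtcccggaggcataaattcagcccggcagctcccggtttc
Jun: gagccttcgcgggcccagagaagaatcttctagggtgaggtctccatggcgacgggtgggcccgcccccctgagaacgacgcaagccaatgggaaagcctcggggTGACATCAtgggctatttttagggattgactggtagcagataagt
Batf: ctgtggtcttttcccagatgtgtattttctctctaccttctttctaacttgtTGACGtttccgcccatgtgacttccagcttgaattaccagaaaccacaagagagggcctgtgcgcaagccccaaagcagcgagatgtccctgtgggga

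Motifs were searched on both strands of the full windows of 300 bases, from 250 before to 50 after the start, and TATAAA on the gene strand. TGACG lay in the windows of Fos, Fosb, Junb and Batf, 4 of the 7 members, and in 20.8% of all 32851 windows. In Fos it stood at -129 to -125 and at -66 to -62, counted from the start site, and in Fosb at -60 to -56. TGACATCA, at -45 to -38 of Jun, lay in 3.62% of all windows. A kappaB site, the motif bound by NFκB, was matched in Fos, Fosb and Fosl2 and in 4.51% of all windows, with those of Fos at -214 to -205 and of Fosb at -188 to -179 outside the stretch shown. No member window held the full CRE TGACGTCA (1.79% of all windows), the AP-1 site TGANTCA (7.81%), the CArG box of serum response factor (1.63%) or the STAT site TTCNNNGAA (8.30%). TATAAA was found in Fos, at -33 to -28, and in Junb, at 0 to 5 and so at the start site used, and in 8.32% of all windows. The table's start sites lay 0 to 6 bases from those of GENCODE M21 for Fos, Jun and Fosb, 30 for Junb and 51 for Batf, but 671 for Fosl2 and 1210 for Jund. Bases farther than 250 before the start were not searched, so a member without a match may hold the site there. A match is a description of these letters and says nothing of whether a factor was bound.

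Per transcript length, the Jun family was the more abundant in every sample. In NC, Jund (171 and 222 TPM), Junb (160 and 175 TPM) and Jun (94.7 and 77.7 TPM) led, followed by Batf (38.9 and 53.0 TPM) and Fos (15.9 and 14.3 TPM). Jund and Junb did not separate beyond their spread there, since the lower Jund sample lay below the higher Junb sample. Fosl2, Fosl1 and Fosb closed the order. In LPS, C498 and C498+LPS, Junb and Jund remained the leading pair, and in C498 and C498+LPS every Junb sample lay above every Jund sample.

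**Figure D1:**
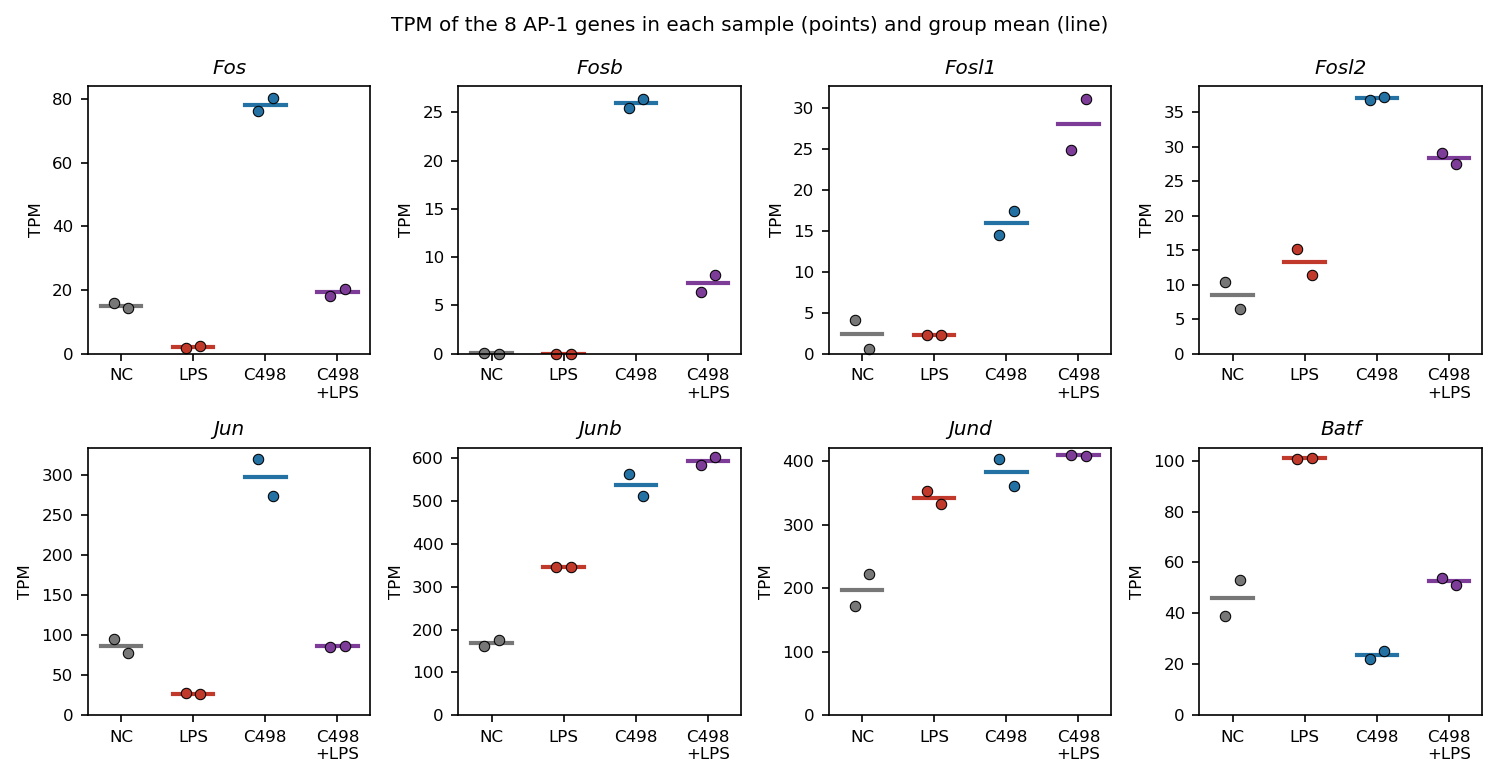
TPM (vertical axes, linear, each gene on its own scale from 0) of the 8 AP-1 genes in each sample, with points for samples and lines for group means, n = 2 per group. Fos, Fosb, Fosl2 and Jun are highest in C498, Fosl1, Junb and Jund are highest in C498+LPS, and Batf is highest in LPS.

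Which AP-1 genes LPS alone changed was asked in LPS vs NC. Fos and Jun were downregulated and Junb and Batf were upregulated, so the family split in direction. A gene was called when its fold change was at least 2 and its adjusted p at most 0.05 in limma on log2(TPM + 1). By that rule 2 of the 8 members were higher, against 5.55% of the 12189 genes tested, and 2 were lower, against 6.68%. The median log2 difference of the members was 0.41 and that of all tested genes -0.17.

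Fos, the founding partner of Jun in AP-1, was at 15.9 and 14.3 TPM in NC and at 1.89 and 2.27 TPM in LPS. Both LPS samples lay far below both NC samples, and the means differed 7.26-fold. On the log2(TPM + 1) scale the difference was -2.39 (SE 0.14, limma adjusted p = 4.758e-05). Jun, which pairs with every Fos protein, was at 94.7 and 77.7 TPM in NC and 27.6 and 26.2 TPM in LPS, without overlap, a 3.21-fold lower mean (log2 difference -1.64, SE 0.13, limma adjusted p = 0.000163). Junb, a Jun protein that activates weakly on its own and can restrain Jun, was at 160 and 175 TPM in NC and at 346 and 347 TPM in LPS. It was 2.07-fold higher (log2 difference 1.04, SE 0.087, limma adjusted p = 0.0002242). Batf, which opposes Fos at AP-1 sites and joins Irf4 and Irf8 at composite sites, was at 38.9 and 53.0 TPM in NC and at 101 and 101 TPM in LPS. Its mean was 2.20-fold higher (log2 difference 1.14, SE 0.15, limma adjusted p = 0.002094). Both of these stood close to the 2-fold threshold: without NC replicate 1 the difference was 0.98 for Junb and 0.92 for Batf, and with quantile normalization that of Junb was 0.93, each under 2-fold.

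The other members gave no call. Jund, the member most steadily expressed in many tissues, was at 171 and 222 TPM in NC and 352 and 332 TPM in LPS, with no overlap and an adjusted p of 0.004073 in limma, but its 1.74-fold difference was under the threshold. Fosl2, a Fos protein without a strong activation domain, was at 10.3 and 6.52 TPM in NC and 15.2 and 11.4 TPM in LPS. The LPS samples lay above the NC samples, but the log2 difference of 0.62 had an adjusted p of 0.07082 in limma (95% interval 0.11 to 1.13, unadjusted). Fosl1, also called Fra-1, was at 4.12 and 0.54 TPM in NC and 2.25 in both LPS samples, so its value rests on which NC sample is taken: the log2 difference was 0.21, but 1.08 without NC replicate 1, past both thresholds, and -0.66 without NC replicate 2. Fosb was listed at 0.06 and 0 TPM in NC and at 0 in both LPS samples. A listed 0 can be a failed estimate, since S100a9 was also listed at 0 in both NC samples where its partner S100a8 was at 75.9 and 128 TPM.

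Most of the family was upregulated in cells given C498 without LPS. In C498 vs NC 6 of 8 members, Fos, Fosb, Fosl1, Fosl2, Jun and Junb, were called higher, against 5.64% of all tested genes, and 0 lower, against 1.36%. All 8 members had an adjusted p of at most 0.05 in limma, against 15.5% of all tested genes, as Jund and Batf missed only the fold threshold, and Batf was the lower member among them. The median log2 difference was 1.91 over the members and 0.01 over all tested genes. The same NC samples served in LPS vs NC, so the comparisons are not independent.

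Among the Fos proteins, Fos was at 76.3 and 80.3 TPM in C498 against 15.9 and 14.3 TPM in NC. Its mean was 5.18-fold higher (log2 difference 2.30, SE 0.14, limma adjusted p = 0.0001787). Fosb, an immediate-early gene best known from the nervous system, was at 25.5 and 26.4 TPM in C498 and at 0.06 and 0 TPM in NC. The log2(TPM + 1) difference was 4.71 (SE 0.20, limma adjusted p = 3.941e-05), at rank 7 by size among the 12189 tested genes in this comparison, and no fold is given against a group with a sample at 0. With NC at or near 0 the size depends on the pseudocount, and over the alternatives it lay between 4.55 and 7.69. Fosl1, at 14.5 and 17.4 TPM in C498 and 4.12 and 0.54 TPM in NC, did not overlap between the groups (6.85-fold, log2 difference 2.59, SE 0.49, limma adjusted p = 0.01563). This call was lost when C498 replicate 1 or 2 was left out (adjusted p = 0.0986 and 0.1123), with no filter on low values (0.05439) and when only the NC and C498 samples were fitted (0.1069), with log2 differences of 2.46 to 2.71. The size rests on the NC samples: leaving out NC replicate 1 gave 3.46 and leaving out NC replicate 2 gave 1.72, called in both. Fosl2 was at 36.8 and 37.3 TPM in C498 against 10.3 and 6.52 TPM in NC, 4.39-fold higher (log2 difference 2.04, SE 0.22, limma adjusted p = 0.001678).

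Among the Jun proteins, Jun was at 320 and 275 TPM in C498 against 94.7 and 77.7 TPM in NC, 3.45-fold higher (log2 difference 1.78, SE 0.13, limma adjusted p = 0.0003089). Junb was at 564 and 512 TPM against 160 and 175 TPM, 3.21-fold higher (log2 difference 1.67, SE 0.087, limma adjusted p = 9.681e-05). Neither overlapped between the groups. Jund was at 403 and 361 TPM in C498 against 171 and 222 TPM, and its 1.94-fold difference was under the threshold (adjusted p = 0.00458 in limma). Without NC replicate 2, without C498 replicate 2 and with quantile normalization it passed, with log2 differences of 1.15, 1.04 and 1.0006. Batf was the single member with a lower mean: 22.0 and 25.1 TPM in C498 against 38.9 and 53.0 TPM in NC, without overlap and 1.95-fold lower (log2 difference -0.92, limma adjusted p = 0.01014). It was not called, but was called lower without NC replicate 1 (-1.14) and with each sample centred on its median gene (-1.05).

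C498+LPS vs LPS asked how the family stood when LPS followed C498. Here 5 members, Fos, Fosb, Fosl1, Fosl2 and Jun, were called higher, against 5.39% of all tested genes, and 0 lower, against 2.18%, while 7 members, Batf among them, and 31.2% of all tested genes had an unadjusted p under 0.05 in limma. Without LPS replicate 1, LPS replicate 2 or C498+LPS replicate 2, 3 members were called higher. The median log2 difference of the members was 1.35 and that of all tested genes 0.01. The fibroblast markers differed in the same direction, at 618 and 911 TPM summed in C498+LPS against 200 and 176 TPM in LPS, and their part was not tested.

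Fos was at 18.1 and 20.5 TPM in C498+LPS and at 1.89 and 2.27 TPM in LPS, 9.26-fold higher (log2 difference 2.72, SE 0.14, limma adjusted p = 0.0001798). Fosb was at 6.38 and 8.17 TPM where both LPS samples were listed at 0 (log2(TPM + 1) difference 3.04, SE 0.20, limma adjusted p = 0.0004607). Over the alternatives this difference of Fosb lay between 2.88 and 6.19. Fosl1 differed by the widest fold of the members with a level above 0 in both groups: 24.8 and 31.1 TPM against 2.25 in both LPS samples, 12.4-fold (log2 difference 3.15, SE 0.49, limma adjusted p = 0.006568). Without LPS replicate 1, LPS replicate 2 or C498+LPS replicate 2 its adjusted p was 0.05829 to 0.06953, although the log2 difference stayed at 2.99 or above. Jun was at 85.7 and 86.6 TPM against 27.6 and 26.2 TPM, 3.20-fold higher (log2 difference 1.64, SE 0.13, limma adjusted p = 0.0006215). Fos, Fosb and Jun kept their calls under every alternative tried.

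Fosl2 stood near the threshold, at 29.1 and 27.5 TPM in C498+LPS and 15.2 and 11.4 TPM in LPS (2.13-fold, log2 difference 1.05, SE 0.22, limma adjusted p = 0.01844). Its call was lost when any 1 of the LPS, C498 or C498+LPS samples was left out, with adjusted p from 0.05265 to 0.1286, and with no filter on low values (0.05199), and its log2 difference was 0.85 without LPS replicate 2 and under 2-fold with centring (0.97) and quantile normalization (0.99). Junb was at 585 and 603 TPM against 346 and 347 TPM, with no overlap, but 1.71-fold (log2 difference 0.78, limma adjusted p = 0.001915). Jund was at 410 and 408 TPM against 352 and 332 TPM, and its log2 difference of 0.26 had a 95% interval from -0.05 to 0.56. Batf was again the member with lower values, 53.9 and 51.2 TPM against 101 and 101 TPM, 1.92-fold lower and not called (log2 difference -0.93, limma adjusted p = 0.008391). With each sample centred on its median gene it was called lower (-1.01).

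**Figure D2:**
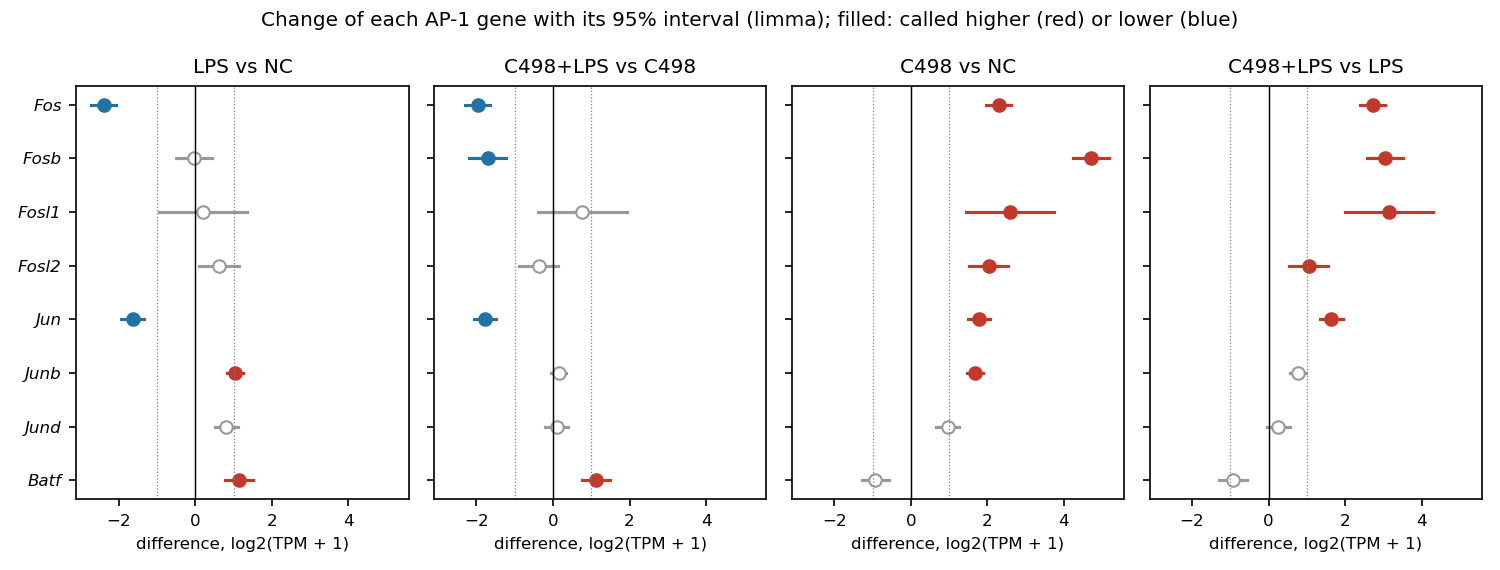
Difference of log2(TPM + 1) (horizontal axis) for each AP-1 gene in 4 comparisons with its unadjusted 95% interval from limma, where red and blue points are called higher and lower, open points are not called and dotted lines mark 2-fold. Fos and Jun lie left of 0 in both LPS comparisons (-2.39 and -1.64 without C498) and right of 0 in both C498 comparisons, and Batf lies on the opposite side in each.

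C498+LPS vs C498 asked what LPS changed in cells that already had C498. Fos, Fosb and Jun were called lower, 3 of 8 members against 3.13% of all tested genes, and Batf was called higher, 1 of 8 against 2.52%. The members' median was -0.14 and that of all tested genes -0.18. Fos went from 76.3 and 80.3 TPM in C498 to 18.1 and 20.5 TPM in C498+LPS, 4.07-fold lower (log2 difference -1.97, limma adjusted p = 0.0002851). Jun went from 320 and 275 TPM to 85.7 and 86.6 TPM, 3.45-fold lower (log2 difference -1.77, limma adjusted p = 0.0002861), a level that overlapped the NC samples. Fosb, at 25.5 and 26.4 TPM in C498 and 6.38 and 8.17 TPM in C498+LPS, was 3.57-fold lower (log2 difference -1.71, limma adjusted p = 0.002393). Batf went from 22.0 and 25.1 TPM to 53.9 and 51.2 TPM, 2.23-fold higher (log2 difference 1.13, limma adjusted p = 0.004533), a call lost without C498 replicate 1 (adjusted p = 0.05401). None of the rest was called: the log2 differences were 0.77 for Fosl1 (95% interval -0.38 to 1.92), -0.38 for Fosl2 (-0.89 to 0.14), 0.15 for Junb (-0.06 to 0.35) and 0.10 for Jund (-0.21 to 0.40).

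Whether the LPS difference itself changed with C498 was tested as an interaction, (C498+LPS minus C498) minus (LPS minus NC). No member was called in either direction at both thresholds, against 0.0738% of all tested genes higher and 0.394% lower. In limma 4 members had an unadjusted p under 0.05, against 11.1% of all tested genes, and 1 member had an adjusted p of at most 0.05, against 0.492%. That member was Junb, whose log2 difference with LPS was 1.04 without and 0.15 with C498 (interaction -0.90, 95% interval -1.19 to -0.61, adjusted p = 0.03909), under 2-fold. Its adjusted p rose above 0.05 when any 1 sample except NC replicate 2 was left out. For Fos, Jun and Batf the interactions were 0.42 (95% interval -0.04 to 0.88), -0.13 (-0.55 to 0.28) and -0.01 (-0.52 to 0.51). The interaction of Fosb was -1.67 (limma adjusted p = 0.07314), with the levels listed at 0 in it, that of Fosl2 -0.99 (0.3098), of Jund -0.71 (0.2163) and of Fosl1 0.56 (0.8048, 95% interval -1.07 to 2.19).

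Because TPM is a level per length, the make-up of each family could be compared. The 4 Fos genes summed to 30.4 and 21.4 TPM in NC, 19.4 and 15.9 in LPS, 153 and 161 in C498 and 78.4 and 87.3 in C498+LPS. The 3 Jun genes summed to 426 and 475 TPM in NC, 726 and 706 in LPS, 1288 and 1148 in C498 and 1081 and 1099 in C498+LPS. Thus Jun transcripts outnumbered Fos transcripts by 14.0 and 22.2 to 1 in NC and 37.5 and 44.4 to 1 in LPS, the widest of the groups, and by 8.41 and 7.11 to 1 in C498, the narrowest. In C498+LPS the ratio was 13.8 and 12.6.

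The leading Fos gene changed with the group. Fos made up 52.3% and 67.0% of the Fos family in NC, 9.76% and 14.3% in LPS, 49.9% and 49.8% in C498 and 23.1% and 23.4% in C498+LPS. Fosl2 led in LPS, with 78.6% and 71.6%. In C498+LPS no gene held a majority, with Fosl2 at 37.1% and 31.5% and Fosl1 at 31.7% and 35.7%. Fosb was at 16.7% and 16.4% in C498 and 8.14% and 9.36% in C498+LPS. In the Jun family, Jun took 22.2% and 16.4% in NC, 3.81% and 3.71% in LPS, 24.9% and 24.0% in C498 and 7.93% and 7.88% in C498+LPS, lower in every LPS-treated sample. The ratio of Junb to Jun was 1.69 and 2.25 in NC, 12.5 and 13.3 in LPS, 1.76 and 1.86 in C498 and 6.83 and 6.97 in C498+LPS, so it overlapped between NC and C498 and was high in both LPS-treated groups.

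**Figure D3:**
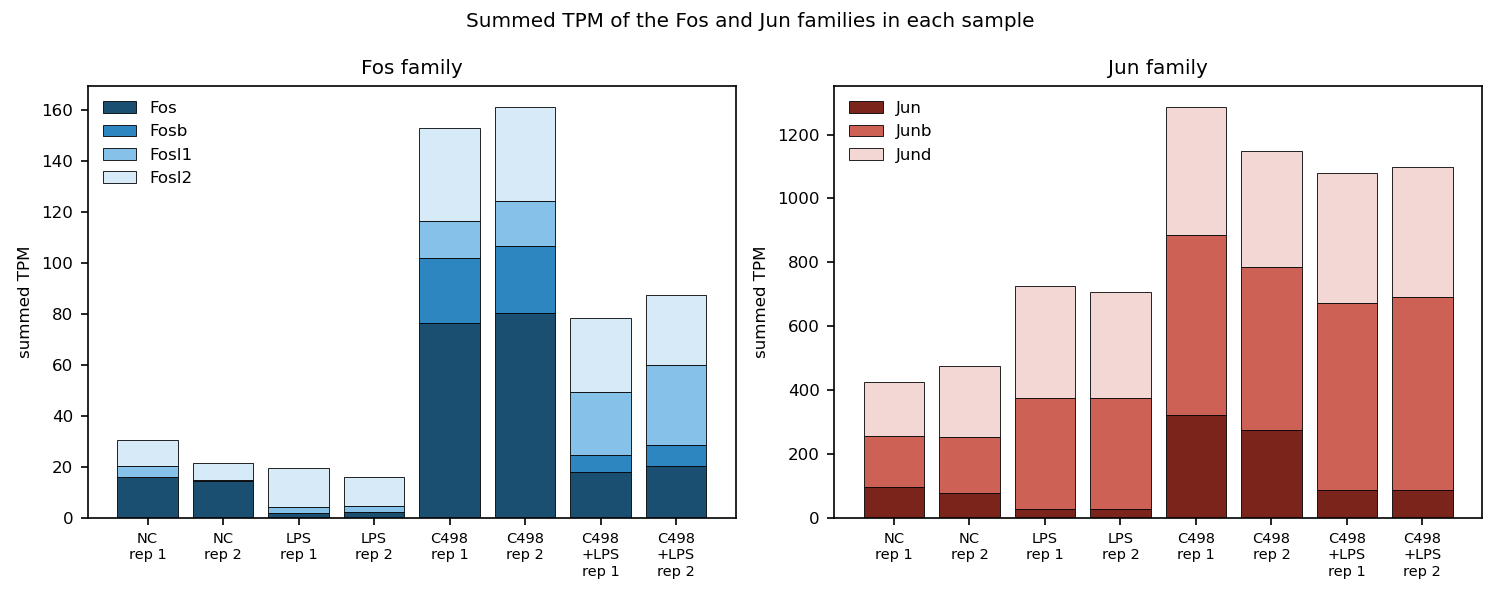
Summed TPM (vertical axes, linear from 0, different scales) of the 4 Fos genes and of the 3 Jun genes in each of the 8 samples, stacked by gene. The Fos family is tallest in C498, at 153 and 161 TPM, and Fosl2 fills most of the LPS bars, at 78.6% and 71.6%.

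On GRCm38 the Fos genes lie at chr12:85473890-85477273 (Fos), chr7:19302696-19310051 (Fosb), chr19:5447547-5455946 (Fosl1) and chr5:32135801-32157842 (Fosl2). The Jun genes lie at chr4:95049034-95052222 (Jun), chr8:84974484-84978718 (Junb) and chr8:70698949-70700616 (Jund), and Batf lies at chr12:85686669-85709087. Some members share bases with a gene on the opposite strand in GENCODE M21, and whether counting used strand is not given in the sources used here, so reads of the shared bases cannot be assigned with certainty. Jun shares 689 bases with Junos, which was at 6.98 and 6.54 TPM in NC and 0.73 to 2.93 TPM in the other samples. Junb shares 351 bases with Prdx2, at 146 to 273 TPM, and Fosl1 shares 2767 with Ccdc85b, at 1.79 to 7.09 TPM. Jund shares 919 bases with Gm11175, at most at 2.09 TPM. None of these neighbours had the member's order of groups.

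The genes closest to each member in pattern were found by the root-mean-square difference of log2(TPM + 1), each gene centred on its own mean, over the 8 samples. These likenesses are descriptions over libraries that the genes share. Rgs2, an inhibitor of G protein signaling, was closest to Fos (0.27 against a spread of 1.67 for Fos itself), then Gm42793 (0.32) and Tcp11l2 (0.36). Dusp1, a phosphatase that switches off MAP kinases, was closest to Fosb (0.13 against 2.03), at 17.0 and 14.7 TPM in NC, 12.8 and 15.3 in LPS, 496 and 435 in C498 and 131 and 153 in C498+LPS. After it came the heat shock gene Hspa1a and the nuclear receptor gene Nr4a1 (both 0.57). Mmp19, a matrix metalloproteinase, was closest to Jun (0.10 against 1.21), at 36.0 and 28.4 TPM in NC, 10.97 and 11.19 in LPS, 130 and 122 in C498 and 37.0 and 32.9 in C498+LPS. The histone gene H1f2 and the immediate-early gene Egr2 followed at 0.19 each.

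Fosl1 had Epha2 (0.29), Ccdc171 (0.37) and Ndrg1 (0.42) nearest, each highest in the C498+LPS samples. Fosl2 had Heg1 (0.14), Fbn1 (0.14) and Fzd5 (0.17). Junb lay near Lrrc32 (0.14), Ier5 (0.16) and Oser1 (0.17), and Jund near Cited2 (0.13), Tes (0.15) and Glis2 (0.15). Batf lay near Vasp (0.17), an actin regulator, Magohb (0.18) and Lrrc75a (0.19). Vasp was at 130 and 140 TPM in NC, 359 and 344 in LPS, 90.3 and 86.3 in C498 and 180 and 148 in C498+LPS. Between members, Junb and Jund were the most alike (0.33), followed by Fosl2 and Junb (0.36) and by Fos and Jun (0.50), and Fosb and Batf were the least alike (2.64).

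**Figure D4:**
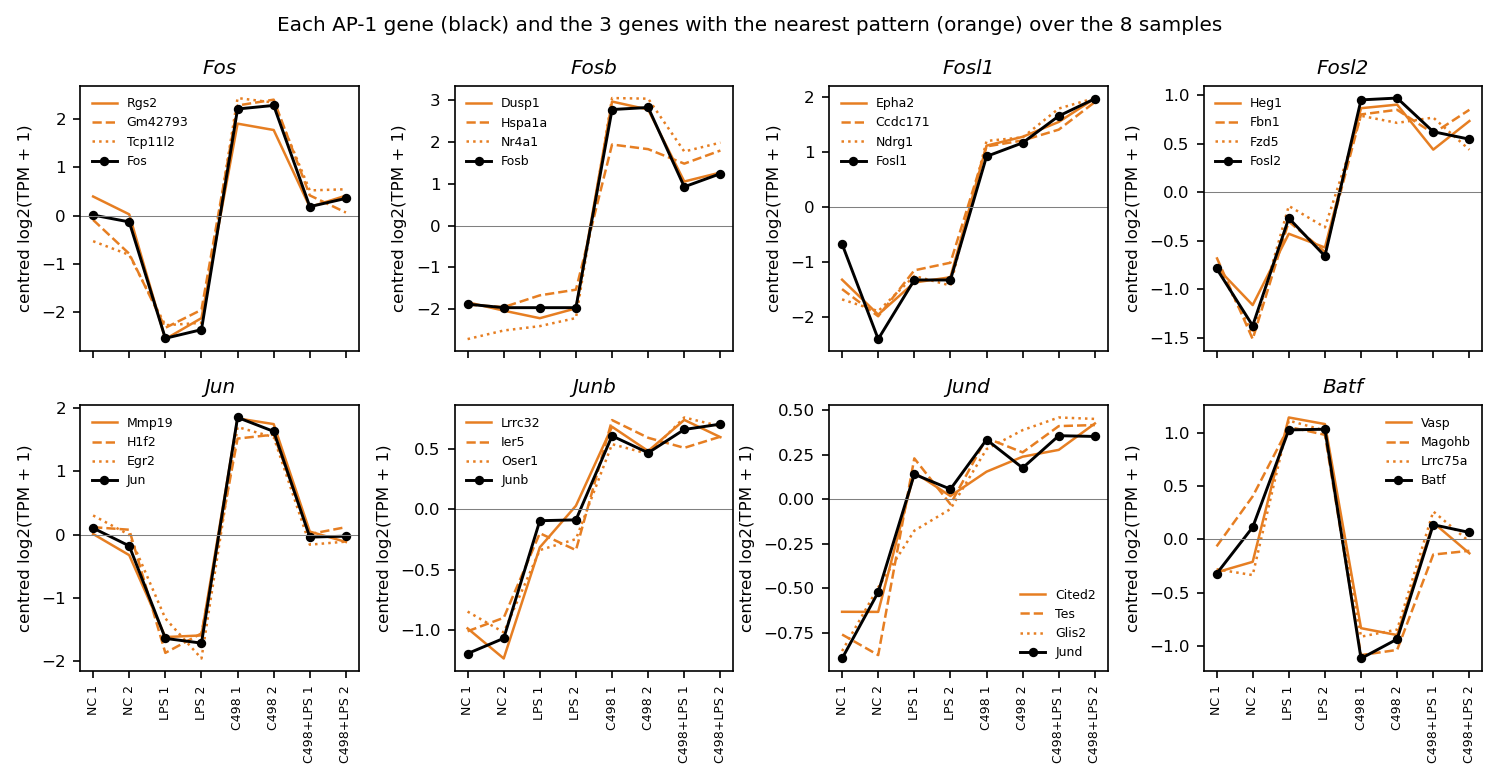
Centred log2(TPM + 1) (vertical axes) of each AP-1 gene, in black, and of the 3 genes nearest to it in pattern, in orange, over the 8 samples on the horizontal axis (replicates 1 and 2 of each group). The orange lines run close to the black line for Jun and Mmp19 (0.10) and for Fosb and Dusp1 (0.13), and Batf and its neighbours peak in LPS.

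Lists of 105 genes around AP-1 were counted by the same rule. Over all tested genes, the shares called higher and lower were 5.55% and 6.68% in LPS vs NC, 5.64% and 1.36% in C498 vs NC, 5.39% and 2.18% for C498+LPS against LPS, 2.52% and 3.13% for C498+LPS against C498, and 0.0738% and 0.394% in the interaction, and each list's count is to be read against them. The partners that share dimers or sites with AP-1 (13 genes) had 3 higher and 2 lower in LPS vs NC (1 lower without LPS replicate 1 and with quantile normalization), 4 and 1 in C498 vs NC, and 4 and 0 in C498+LPS vs LPS, where 8, against 31.2% of all tested genes, had an unadjusted p under 0.05 in limma. The small Maf gene Maff, a partner without an activation domain, was at 5.61 and 6.08 TPM in NC, 36.5 and 32.0 in LPS, 44.4 and 42.6 in C498 and 77.0 and 70.8 in C498+LPS. It was called higher with LPS alone (log2 difference 2.36) and with C498 alone (2.70). Batf2, which like Batf pairs with Jun, was called higher in LPS (log2 difference 1.96) and in C498+LPS vs C498 (1.23), and Batf3 was called lower in C498 vs NC (-1.05). The call of Batf3 was lost with no filter, in the fit of only the groups compared, and without NC replicate 2 or any 1 C498 or C498+LPS sample. Batf3 was lower than NC in every treated group, at 12.8 and 12.7 TPM in NC, 4.28 and 5.72 in LPS, 7.01 and 4.52 in C498 and 5.86 and 6.02 in C498+LPS. Atf3, a stress-induced repressor, was at 227 and 225 TPM in NC and 648 and 569 in C498 (1.42). Of the partners of Batf at composite sites, Irf8 (1.43) and Irf4 (1.32), the latter at 0.44 to 4.52 TPM in all samples, were called higher in C498+LPS vs LPS. The partners called higher there numbered 2 without LPS replicate 2. In the interaction 2 partners, Maff (-1.61) and Mafk (-1.03), were called lower, and both lost their call when any 1 of the LPS, C498 or C498+LPS samples was left out.

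The kinases that feed AP-1 came next. Of 21 tested genes of the MAP kinase cascade, LPS vs NC called 3 higher, among them Mapkapk2 (log2 difference 1.95), which stabilizes inflammatory mRNAs, and Map3k8 (1.05), and called Map2k5 lower (-1.09), a call lost with centring and with quantile normalization, while 2 were called lower without NC replicate 2. C498 vs NC called 1, Mapk8 (1.14), the gene of the kinase JNK1, and C498+LPS vs LPS called 1, Map2k3 (1.06). The call in C498 vs NC was lost when any 1 sample except NC replicate 1 was left out, with no filter and in the fit of only the groups compared, and that of Map2k3 without LPS replicate 2 or C498+LPS replicate 2 and with centring. The list medians were -0.10, 0.12 and -0.07. Of 11 factors that bind Fos and Jun promoters, 0 were called in LPS vs NC and when C498+LPS was set against LPS (3 and 5 at an unadjusted p under 0.05 in limma, against 41.2% and 31.2% of all tested genes). Leaving out an NC sample gave 1 call in LPS vs NC, higher without replicate 1 and lower without replicate 2, and leaving out either LPS sample or C498+LPS replicate 1 gave 1 to 2 calls higher in the other comparison. In C498 vs NC 2 were called higher, Crem (1.69), a CRE-binding factor that is itself inducible, and Mef2d (1.11). That count was 4 without NC replicate 1, and 1 with centring or without NC replicate 2, C498 replicate 1 or C498 replicate 2.

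Most of the MAP kinase phosphatases listed were upregulated in C498. Of 9 genes, 5 were called higher in C498 vs NC, with Dusp1 (log2 difference 4.79, limma adjusted p = 1.085e-05), Dusp5 (2.60), Dusp10 (2.37) and Dusp2 (2.03) ahead, and 4 in C498+LPS vs LPS, again led by Dusp1 (3.25). LPS vs NC called 2, Dusp4 (1.26) and Dusp16 (1.59), and 1 in the fit of only the groups compared and without NC replicate 2 or LPS replicate 1. The list median was 1.95 in C498 vs NC, against 0.01 over all tested genes. Dusp1 alone was lower in C498+LPS vs C498 (-1.71) and in the interaction (-1.54), a call that was lost without any 1 sample except NC replicate 1. Of 9 genes of Fos and Jun turnover, 3 were called higher in C498 vs NC and 4 in C498+LPS vs LPS, and 0 in LPS vs NC (6 at an unadjusted p under 0.05 in limma, against 41.2% of all tested genes), where 1 was called higher without NC replicate 1 or with centring and 2 lower without NC replicate 2. Zfp36, whose protein tristetraprolin binds AU-rich elements and speeds the decay of mRNAs such as that of Fos, was at 35.3 and 31.1 TPM in NC, 66.9 and 61.0 in LPS, 178 and 162 in C498 and 234 and 239 in C498+LPS (log2 differences of 2.32 in C498 vs NC and 1.87 in C498+LPS vs LPS). Trib1, a scaffold for the ubiquitin ligase Cop1, rose in both (1.84 and 1.88).

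Other immediate-early genes were called in the direction of Fos and Jun in the C498 comparisons. Of 16 tested, 13 were higher and 0 lower in C498 vs NC, and 10 higher and 0 lower in C498+LPS vs LPS, with medians of 1.98 and 1.52. Without C498 replicate 1 the 13 became 8. Nr4a1, at 0.97 and 1.27 TPM in NC and 105 and 104 TPM in C498, had a log2 difference of 5.64 (limma adjusted p = 1.085e-05), Nr4a2 of 4.30 and Egr1, a zinc finger factor of the same early wave, of 4.24. In LPS vs NC 4 were called higher, such as Gadd45b (1.88), and 1, Egr2 (-1.79), was called lower as Fos and Jun were.

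Known targets of AP-1 were also listed. Of 21 tested, 12 were higher and 1 lower in LPS vs NC, where Fos and Jun were lower, and 0 lower without NC replicate 1 or with quantile normalization. Il6 was at 1.05 and 1.80 TPM in NC and 532 and 512 in LPS (log2 difference 7.77, limma adjusted p = 4.594e-07), and Ptgs2 (6.64), Il1b (6.47) and Edn1 (5.68) came next. In C498 vs NC 9 were higher, led by Ptgs2 (4.04), Vegfa (2.76) and Hbegf (2.39). In C498+LPS vs LPS 4 were higher, among them Vegfa (2.80), Timp1 (1.81) and Hbegf (1.66), and 0 lower, with 12 at an unadjusted p under 0.05 in limma, against 31.2% of all tested genes. Vegfa, at 24.3 and 17.2 TPM in NC, 8.42 and 8.58 in LPS, 145 and 144 in C498 and 63.8 and 66.6 in C498+LPS, had the order of groups that Fos had. In the interaction 5 targets, among them Ptgs2 (-3.34), Il6 (-2.36), Edn1 (-1.96) and Tnf (-1.70), were lower, against 0.394% of all tested genes, so their log2 difference with LPS was smaller with C498. This count was 0 without either LPS sample and 1 to 4 without any other sample. All 5 of these targets were called higher in C498 vs NC, and none was called in C498+LPS vs LPS. There the log2 differences were 0.70 for Ptgs2, -0.34 for Il6, -0.42 for Edn1 and -0.57 for Tnf. Ptgs2 was at 5.64 and 2.54 TPM in NC, 549 and 425 in LPS, 83.8 and 73.8 in C498 and 856 and 720 in C498+LPS. Timp1 is also made by fibroblasts, whose markers were higher in the C498-treated samples, and the part of fibroblasts in it was not tested.

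**Figure D5:**
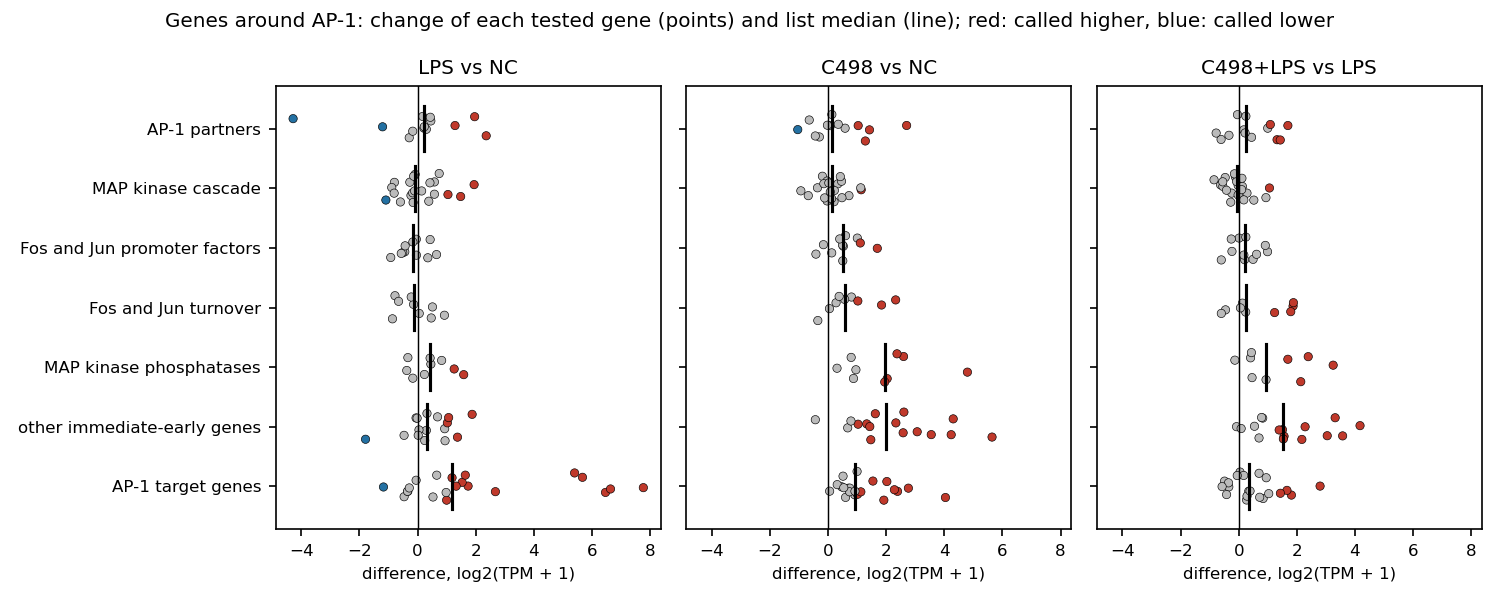
Difference of log2(TPM + 1) (horizontal axes) of each tested gene in 7 lists around AP-1 for 3 comparisons, with red points called higher, blue points called lower, grey points not called, and a bar at the list median. In C498 vs NC the MAP kinase phosphatases and, except Klf2 (-0.44, not called), the other immediate-early genes lie right of 0, with medians of 1.95 and 1.98, while the MAP kinase cascade is centred near 0.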

How the data were processed

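The authors extracted total RNA with TRIzol, made TruSeq libraries and sequenced them on an Illumina NovaSeq. Reads were trimmed by fastp, mapped by HISAT2, assembled by StringTie and quantified by RSEM. Versions, genome build and annotation are not given in the sources used here. The authors deposited TPM values per gene for 8 samples. Every sample sums to the same total within rounding, so depth is unknown and no counting error can be given. The 4 columns of group means were not used.

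From these, limma 3.58.1 (R 4.3.3) was run on log2(TPM + 1) of the 12189 genes whose mean TPM was 1 or more: 1 mean per group, variances moderated with a trend, two-sided, Benjamini-Hochberg over all tested genes. The pseudocount understates changes of low genes. An exact two-sided permutation of 2 against 2 samples cannot go below p = 0.333. The steps were tested on simulated data.

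By rule, the text names the members, the 3 genes nearest to each in pattern, and at most 4 called genes per list and comparison, those with the largest change, apart from some list genes that are counted but not reported here by name. Members and lists were chosen with earlier results of these data known. Positions are from GENCODE M21 (GRCm38) and promoters from RefSeq (GRCm38.p6). Alternatives were a pseudocount of 0.1, no filter or a minimum mean TPM of 5, median centring, quantile normalization, fitting the compared groups alone, a constant prior variance, a replicate block, no fold threshold and leaving out each sample. Other cell type markers and genes that overlap a member are named as checks.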

Additional observations from a re-analysis of the deposited data

Results flagged for a closer look

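The difference of Junb with LPS was not the same with and without C498. It was 1.04 on the log2(TPM + 1) scale in LPS vs NC, was 0.15 when C498+LPS was set against C498, and the test of the difference between them gave -0.90 (limma interaction, adjusted p = 0.03909, unadjusted 95% interval -1.19 to -0.61). Junb was at 160 and 175 TPM in NC, 346 and 347 in LPS, 564 and 512 in C498 and 585 and 603 in C498+LPS, so the samples with C498 alone already lay above those with LPS alone. Over the alternatives the adjusted p lay between 0.02759 and 0.204, and it was above 0.05 when any 1 sample except NC replicate 2 was left out, while the interaction stayed between -0.97 and -0.83.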

How the results depend on the processing

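Of the log2 differences of the members over all alternatives, 594 kept their direction and their call, or lack of one, by both thresholds together, though in some of these the adjusted p alone crossed 0.05. A call was lost in 20 and gained in 7, and 11 turned in sign or, for Fosb in 1, went to 0. Members called higher in LPS vs NC numbered 1, not 2, with quantile normalization. Without NC replicate 1 both of these members fell under 2-fold, with log2 differences of 0.98 for Junb and 0.92 for Batf, while that of Fosl1 was 1.08. Members called lower numbered 1, not 0, in the comparisons of C498 with NC and of C498+LPS with LPS, with centring and with no fold threshold, and 1 in the interaction with no fold threshold. When a sample was left out, they numbered 0 to 1 in C498 vs NC, and members called higher 3 to 5 when C498+LPS was set against LPS and 0 to 1 against C498. These lone calls lower without a fold threshold, or with centring, were Batf, or Junb in the interaction. Those that turned or went to 0 were Fosb in LPS vs NC (0.13 with centring, -0.084 to 0 when a sample was left out), Fosl1 in LPS vs NC (-0.66 to 1.08 when a sample was left out) and in the interaction (-0.31 to 1.43), Jun in the interaction (-0.27 to 0.0074) and Batf in the interaction (0.0075 with the pseudocount of 0.1, 0.039 with centring, 0.17 with quantile normalization and -0.22 to 0.21 when a sample was left out). The cause was not tested.

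Centring moved the median of all tested genes from -0.17 to -0.0005 in LPS vs NC, from 0.01 to -0.11 in C498 vs NC and from -0.18 to 0.04 in C498+LPS vs C498, and the share of calls that were higher from 45.4% to 61.7%, from 80.5% to 67.7% and from 44.6% to 68.9%. With quantile normalization these shares were 60.1%, 67.3% and 61.0%. Same-numbered samples deviated together weakly, with correlations of 0.10 to 0.17 for the pairs with NC and 0.04 for the others, and the sources used here state no shared origin, so the number was not taken as a pairing. With the replicate block the members called higher and lower were 2 and 2 in LPS vs NC, 6 and 0 in C498 vs NC, 5 and 0 for C498+LPS vs LPS, 1 and 3 for C498+LPS vs C498 and 0 and 0 in the interaction. Of the counts over the lists around AP-1, 147 moved by more than 1.5 times. Depth is unknown, so low genes such as Fosb and Fosl1 have no counting error.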
